A study of Mus musculus with 18 samples.

Results

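The IL-12 family cytokine subunits are encoded by 5 mouse genes, *Il12a*, *Il12b*, *Il23a*, *Il27* and *Ebi3*, which were found by their symbols among the 62197 genes of the RNA-seq table, 5 of 5 found. A gene was tested if 3 or more libraries had 10 normalized counts or more of it, which held for 17875 genes and for 5 of 5 members. *Il23a* reached that limit in the confined cPLA_2_ WT and LPS libraries and in 1 confined cPLA_2_ KO library, but in no nonconfined library, and among cPLA_2_ WT libraries *Il12a* reached the limit only in confined and LPS ones, so that a gene with such a pattern had to differ to be tested. IL-12 family cytokines are secreted dimers of a cytokine-like chain and a receptor-like chain, and the chains are shared. The p40 chain from *Il12b* pairs with the p35 chain from *Il12a* to make IL-12 and with the p19 chain from *Il23a* to make IL-23. EBI3 pairs with the p28 chain from *Il27* to make IL-27 and with p35 to make IL-35. DCs secrete IL-12, IL-23 and IL-27 after sensing microbes. IL-12 is known to drive interferon-γ-producing helper T cells, IL-23 to maintain IL-17-producing T cells, and IL-27 to act on T cells with both stimulating and restraining effects.

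The study asked how squeezing, which deforms DCs as they pass through tissue, changes their immune functions, and whether the lipid enzyme cPLA_2_ is needed. Poly(A) RNA from bulk mouse DCs was sequenced, with 3 libraries in each of 6 conditions and 18 libraries in all. The cPLA_2_ KO DCs came from conditional knockout mice (*Pla2g4a* fl/fl × *Itgax*-*cre*), in which the CD11c promoter drives Cre, so that recombination depends on the cells turning on that promoter. The floxed mice had been made by CRISPR and backcrossed to C57BL/6, and cPLA_2_ WT DCs served as controls. All DCs were grown from bone marrow for 10 days with supernatant of J558 cells that contains GM-CSF. Such cultures also yield granulocytes and macrophages. The study's methods use adhesion to remove both and keep the semiadherent cells as DCs. Nonconfined cells were taken when the culture ended, without a stimulus. Confined cells were held at a height of 3 µm and were collected 4 h after confinement. LPS-treated cells, a microbial control, received LPS at 100 ng/ml for 30 min and, after a wash, stayed in the incubator until the following day. The deposited treatment text with this LPS step is the same for all 18 samples, and which samples received LPS was taken from their titles. Reads on genes ranged from 33027230 to 61300021 per library, and levels are given as normalized counts, which are the authors' gene counts divided by 1 size factor per library.

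Markers of DCs were present. The 7 of 7 listed genes, *Itgax*, *H2-Aa*, *H2-Ab1*, *Cd74*, *Flt3*, *Zbtb46* and *Ccr7*, were above 0 in each of the 18 libraries, with *Cd74*, the invariant chain of MHC class II, as the most abundant. Their summed level was 442201, 417035 and 422214 normalized counts in nonconfined cPLA_2_ WT libraries and 408405, 379697 and 391949 in confined cPLA_2_ WT libraries. The sum in cPLA_2_ KO cells was 524511, 491935 and 511801 before and 362223, 348769 and 361508 after confinement. Both genotypes thus had lower sums after confinement, with no overlap between the nonconfined and the confined libraries of a genotype. Within the list *Ccr7* went the other way in cPLA_2_ WT cells, with means of 15884 ± 244 (SD, n = 3) in nonconfined and 32945 ± 650 in confined cells. In cPLA_2_ KO cells *Ccr7* was at 16451 ± 812 in nonconfined and 8919 ± 34.4 in confined cells.

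In the LPS libraries *Pla2g4a* and *Ddx3y* did not follow the genotype labels as they did in the other libraries. *Pla2g4a*, the gene of cPLA_2_, had 697, 686 and 770 normalized counts in nonconfined cPLA_2_ WT and 548, 542 and 533 in nonconfined cPLA_2_ KO libraries. After confinement, *Pla2g4a* was at 1369, 1430 and 1321 in cPLA_2_ WT and at 923, 871 and 920 in cPLA_2_ KO libraries. It was thus lower in the knockout in both states, by -0.41 (adjusted p = 0.00019) and -0.60 (adjusted p = 3.81e-08) on the log2 scale in the limma fit, with transcript still present. The libraries labelled LPS cPLA_2_ WT had 1005, 969 and 967 counts of *Pla2g4a* and those labelled LPS cPLA_2_ KO had 1065, 1032 and 1028, so that the second group was not lower.

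*Ddx3y*, a gene on the Y chromosome, parted the genotypes elsewhere. It had 3.05, 0 and 1.97 normalized counts in nonconfined and 0, 1.72 and 2.37 in confined cPLA_2_ WT libraries, against 949, 981 and 874 in nonconfined and 1036, 920 and 948 in confined cPLA_2_ KO libraries. The libraries labelled LPS cPLA_2_ WT had 1271, 0 and 662, and those labelled LPS cPLA_2_ KO had 2.12, 1476 and 783, so that each label held 1 library at or near 0, 1 with a high count and 1, library 3, between them. By the chi-square per degree of freedom between read counts, library 2 labelled cPLA_2_ WT and library 1 labelled cPLA_2_ KO were closest to each other (5.75), as were library 3 of both labels (7.02). Library 1 labelled cPLA_2_ WT and library 2 labelled cPLA_2_ KO were each closest to library 3 of their own label (14.34 and 11.48). Pairs of the same label gave 11.5 to 53.8 and pairs of different labels 5.75 to 49.2. What these libraries hold cannot be told from the labels. *Xist*, which is expressed from an inactive X chromosome, was present in each of the 18 libraries, with means from 15188 in nonconfined cPLA_2_ KO to 30772 in nonconfined cPLA_2_ WT libraries. Of 6 genes listed to check labels, *Ddx3y*, *Eif2s3y*, *Kdm5d* and *Uty*, all on the Y chromosome, were called higher in cPLA_2_ KO cells in both states, *Xist* was called lower in nonconfined cells, and *Pla2g4a* stayed within the limit for a call. None of the 6 was called between the LPS labels by limma. The genotype and the presence of Y-chromosome transcripts cannot be told apart in nonconfined and confined cells. The phrases "labelled LPS cPLA_2_ WT" and "labelled LPS cPLA_2_ KO" below follow the labels without regrouping. The fits that use these 6 libraries were also run with both labels pooled, and the other fits without them.

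*Il12a* lies on chromosome 3 (GSMG0034100, GRCm39, bases 68597977 to 68605883, plus strand), *Il12b* on chromosome 11 (GSMG0007243, bases 44290888 to 44305504, plus strand) and *Il23a* on chromosome 10 (GSMG0006901, bases 128132008 to 128134621, minus strand). *Il27* lies on chromosome 7 (GSMG0052520, bases 126188181 to 126194194, minus strand) and *Ebi3* on chromosome 17 (GSMG0023387, bases 56259623 to 56264024, plus strand). The canonical GENCODE transcripts have 7 exons for *Il12a*, 8 for *Il12b*, 4 for *Il23a*, 5 for *Il27* and 5 for *Ebi3*. *Il27* shares 116 bases with its neighbor *Apobr*, which had 514 to 804 normalized counts over the 18 libraries. *Ebi3* shares 2254 bases with *Gm16712*, which had 6.40 to 70.3 counts, far fewer than *Ebi3*.

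*Il12b* encodes the chain that IL-12 and IL-23 share. In nonconfined cPLA_2_ WT libraries it had 179, 170 and 184 normalized counts, and in confined cPLA_2_ WT libraries 27234, 25842 and 26344. Nonconfined cPLA_2_ KO libraries had 223, 248 and 252 counts of *Il12b*, and confined cPLA_2_ KO libraries 391, 377 and 299. Each confined cPLA_2_ WT library was above each library of the other 3 groups, and these 3 groups, although close to each other, did not overlap either. In the libraries labelled LPS cPLA_2_ WT *Il12b* had 167007, 228621 and 188481 counts, and in those labelled LPS cPLA_2_ KO 217969, 163396 and 184727. The labelled LPS groups overlapped each other and lay above the 4 other groups.

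*Il12a* encodes p35, the partner that makes IL-12 of p40. It had 9.14, 3.41 and 1.97 normalized counts in nonconfined cPLA_2_ WT and 117, 84.9 and 67.5 in confined cPLA_2_ WT libraries. Nonconfined cPLA_2_ KO libraries had 4.70, 18.6 and 3.88 counts, and confined cPLA_2_ KO libraries 20.5, 16.0 and 5.47. The confined cPLA_2_ WT libraries were the highest of these 4 groups, whereas the nonconfined groups and the confined cPLA_2_ KO group overlapped as neighbors in the order of their means, 4.84, 9.07 and 14.0. *Il12a* reached 1559, 1048 and 1391 counts in libraries labelled LPS cPLA_2_ WT and 1225, 1722 and 1434 in those labelled LPS cPLA_2_ KO. These last groups overlapped.

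*Il23a* encodes p19, the partner that makes IL-23 of p40. Nonconfined cPLA_2_ WT libraries had 3.05, 1.71 and 1.97 normalized counts, which rest on 8 reads in total, and confined cPLA_2_ WT libraries had 807, 763 and 746. Nonconfined cPLA_2_ KO libraries had 1.57, 0 and 0 counts, which rest on 2 reads, and confined cPLA_2_ KO libraries had 20.5, 5.33 and 9.11. The 4 groups did not overlap, and the nonconfined groups were close to the limit of detection. With LPS, *Il23a* was at 1993, 2317 and 2400 counts in libraries labelled cPLA_2_ WT and at 2387, 2131 and 2456 in those labelled cPLA_2_ KO, again overlapping.

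*Il27* encodes p28, the cytokine-like chain of IL-27. It had 38.1, 36.7 and 36.4 normalized counts in nonconfined and 467, 472 and 550 in confined cPLA_2_ WT libraries. *Il27* in cPLA_2_ KO cells had 39.2, 34.4 and 43.7 counts in nonconfined and 66.9, 51.2 and 41.9 in confined libraries. Both cPLA_2_ KO groups overlapped each other and lay below the confined cPLA_2_ WT libraries. Libraries labelled LPS cPLA_2_ WT had 3442, 3344 and 3105 counts and those labelled LPS cPLA_2_ KO 3123, 3116 and 3208, which overlapped.

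*Ebi3* encodes the receptor-like chain of IL-27 and IL-35. It had 3750, 3500 and 3442 normalized counts in nonconfined and 10677, 9869 and 10120 in confined cPLA_2_ WT libraries. Nonconfined cPLA_2_ KO libraries had 4184, 3833 and 4101 counts of *Ebi3*, and confined cPLA_2_ KO libraries 3626, 3463 and 3599. The confined cPLA_2_ KO group, with a mean of 3563 ± 86.9 (SD, n = 3), overlapped the nonconfined cPLA_2_ WT group, with 3564 ± 163 (SD, n = 3), and lay below each nonconfined cPLA_2_ KO library. *Ebi3* was the only subunit whose mean was lower in confined than in nonconfined cPLA_2_ KO cells. Libraries labelled LPS cPLA_2_ WT had 20722, 21919 and 21358 counts and those labelled LPS cPLA_2_ KO 21789, 20805 and 21503, which overlapped.

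**Figure D1:**
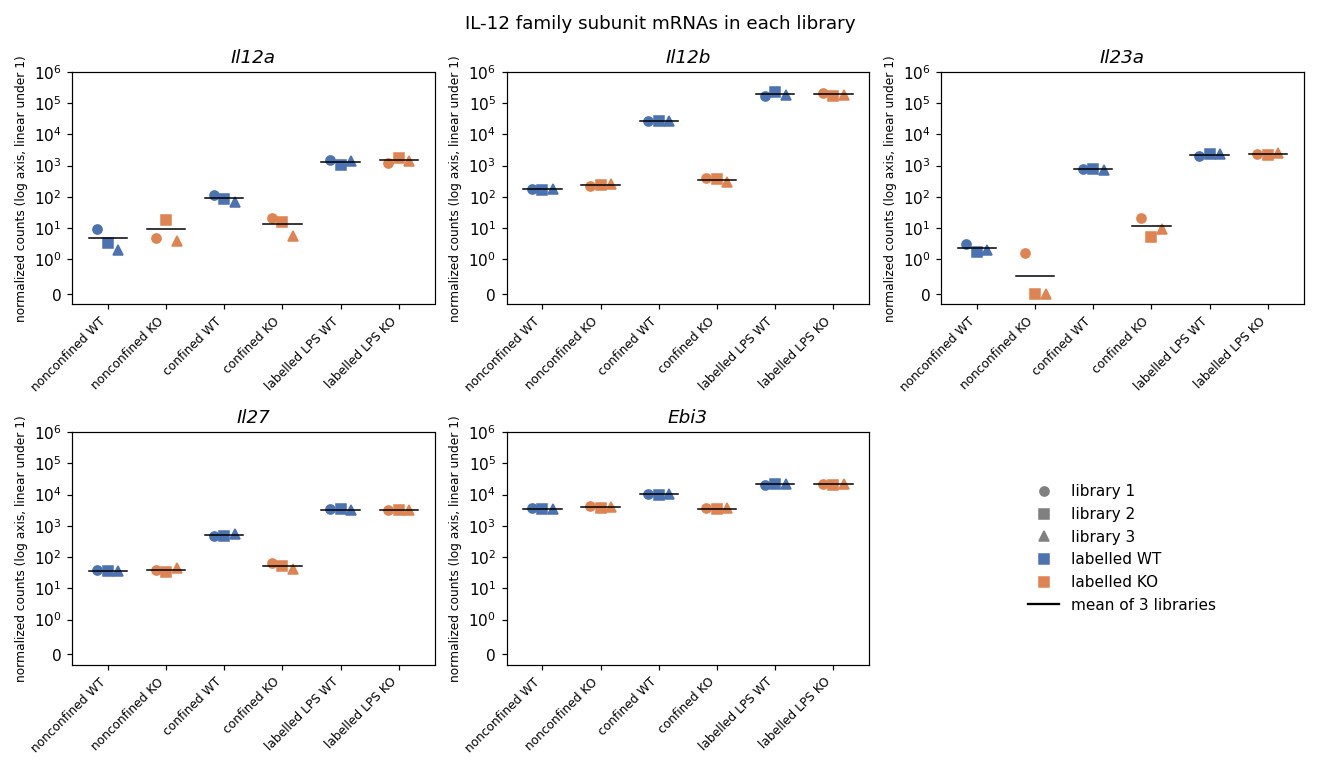
Normalized counts of the 5 subunit genes in each of the 18 libraries, with 1 panel per gene, a vertical axis that is logarithmic above 1 and linear below, 1 symbol per library and a line at the mean of 3 libraries; blue marks libraries labelled cPLA_2_ WT and orange those labelled cPLA_2_ KO. *Il12b* moves from 170 to 184 counts in nonconfined to 25842 to 27234 in confined cPLA_2_ WT libraries, while confined cPLA_2_ KO libraries stay between 299 and 391.

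Levels of different genes were compared per kilobase (kb) of the canonical transcript, whose length is 1344 bases for *Il12a*, 2588 for *Il12b*, 1371 for *Il23a*, 1118 for *Il27* and 1155 for *Ebi3*. In nonconfined cPLA_2_ WT cells *Ebi3* was the highest, with a mean of 3086 ± 141 (SD, n = 3) normalized counts per kb. *Il12b* followed with 68.6 ± 2.77, *Il27* with 33.1 ± 0.831, *Il12a* with 3.60 ± 2.82 and *Il23a* with 1.63 ± 0.519 counts per kb. The receptor-like chains were thus above their cytokine-like partners before any stimulus. In confined cPLA_2_ WT cells *Il12b* was at 10229 ± 272 and *Ebi3* at 8850 ± 358 counts per kb, with *Il23a* at 563 ± 22.8, *Il27* at 444 ± 41.6 and *Il12a* at 66.8 ± 18.6. *Il12b* was above *Ebi3* in 3 of 3 of these libraries and below it in 3 of 3 nonconfined libraries. In confined cPLA_2_ KO cells the per-kb means were 3084 ± 75.2 for *Ebi3*, 137 ± 19.2 for *Il12b*, 47.7 ± 11.3 for *Il27*, 10.4 ± 5.74 for *Il12a* and 8.50 ± 5.76 for *Il23a*. In libraries labelled LPS cPLA_2_ WT they were 75233 ± 12084 for *Il12b*, 18470 ± 519 for *Ebi3*, 2949 ± 155 for *Il27*, 1631 ± 157 for *Il23a* and 992 ± 194 for *Il12a*.

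The ratio of paired subunits per kb shows which chain was in shorter supply as mRNA, with protein not measured here. *Il12b* over *Il12a*, the pair of IL-12, was 10.2, 25.8 and 48.6 in nonconfined and 121, 158 and 203 in confined cPLA_2_ WT libraries, and 24.6, 6.91 and 33.8 in nonconfined and 9.89, 12.3 and 28.4 in confined cPLA_2_ KO libraries. It was 55.6, 113 and 70.4 in libraries labelled LPS cPLA_2_ WT and 92.4, 49.3 and 66.9 in those labelled LPS cPLA_2_ KO. The confined cPLA_2_ WT libraries had the highest ratios and overlapped no other group. *Il12b* over *Il23a*, the pair of IL-23, was 17.9, 17.9 and 18.7 in confined cPLA_2_ WT libraries, 44.4, 52.3 and 41.6 in those labelled LPS cPLA_2_ WT and 48.4, 40.6 and 39.8 in those labelled LPS cPLA_2_ KO. Per *Il23a* mRNA there was therefore less *Il12b* mRNA in confined cPLA_2_ WT cells than in each LPS library. Nonconfined cPLA_2_ WT libraries had ratios of 31.1, 52.7 and 49.5, from 8 reads of *Il23a*, all above those of the confined cPLA_2_ WT libraries. In confined cPLA_2_ KO cells this ratio was 10.1, 37.5 and 17.4. In nonconfined cPLA_2_ KO cells it was 75.2 in library 1, from 2 reads of *Il23a*, and had no value in the 2 libraries with *Il23a* at 0. In each library p40 mRNA was in excess of p35 mRNA and, where detected, of p19 mRNA.

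For IL-27, *Ebi3* over *Il27* was 95.3, 92.4 and 91.6 in nonconfined and 22.1, 20.3 and 17.8 in confined cPLA_2_ WT libraries. In cPLA_2_ KO cells it was 103, 108 and 90.9 in nonconfined and 52.5, 65.5 and 83.1 in confined libraries, without overlap. LPS libraries had the lowest ratios, with 5.83, 6.35 and 6.66 under the label cPLA_2_ WT and 6.75, 6.46 and 6.49 under the label cPLA_2_ KO. *Ebi3* over *Il12a*, the pair of IL-35, had a mean of 1236 ± 781 (SD, n = 3) without confinement in cPLA_2_ WT and 835 ± 525 in cPLA_2_ KO cells, 139 ± 34.2 in confined cPLA_2_ WT, 408 ± 311 in confined cPLA_2_ KO, 19.2 ± 4.59 in labelled LPS cPLA_2_ WT and 17.4 ± 3.32 in labelled LPS cPLA_2_ KO libraries. The mean in confined cPLA_2_ KO cells was 229 without library 3. *Il12a* had 40 reads in the confined cPLA_2_ KO libraries together, against 277 in the confined cPLA_2_ WT libraries. In nonconfined libraries it had 18 reads in cPLA_2_ WT and 30 in cPLA_2_ KO cells.

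**Figure D2:**
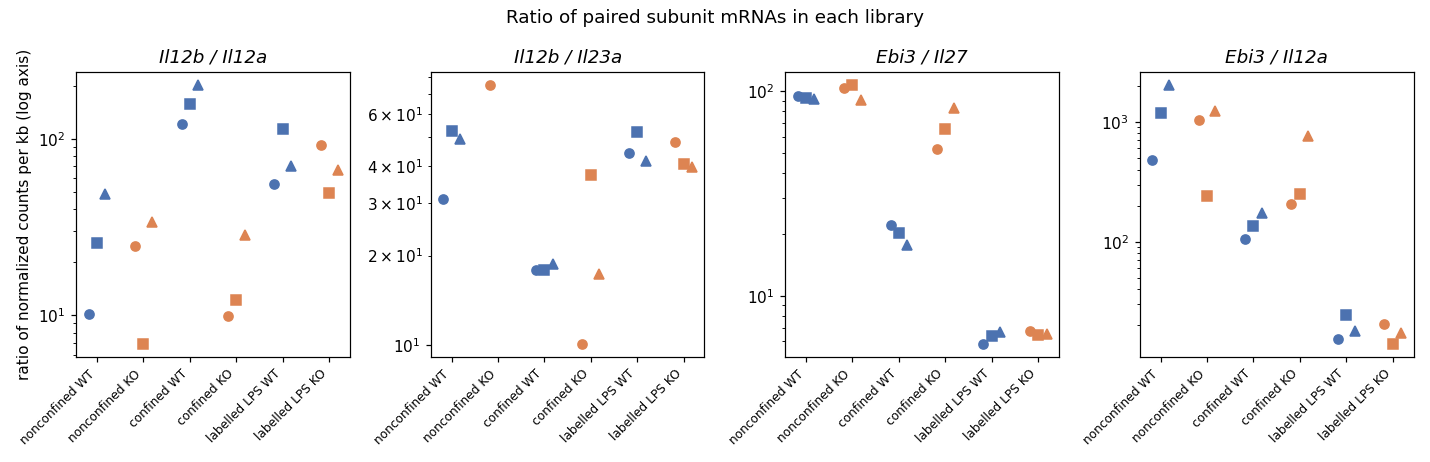
Ratio of normalized counts per kb of paired subunit genes in each library on a logarithmic axis, with 1 panel per pair, circles, squares and triangles for libraries 1, 2 and 3, blue for libraries labelled cPLA_2_ WT and orange for cPLA_2_ KO; 2 libraries without *Il23a* reads have no point. *Ebi3* over *Il27* goes from 91.6 to 95.3 in nonconfined to 17.8 to 22.1 in confined cPLA_2_ WT libraries and to 5.83 to 6.66 in those labelled LPS cPLA_2_ WT.

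Does confinement change the subunits in cPLA_2_ WT cells? The mRNAs of all 3 cytokine-like chains and of both receptor-like chains were higher after confinement, by 149-fold for *Il12b*, 345-fold for *Il23a*, 18.5-fold for *Il12a*, 13.4-fold for *Il27* and 2.87-fold for *Ebi3* as ratios of means. Without nonconfined cPLA_2_ WT library 1 the ratio for *Il12a* was 33.4. A gene was called when its adjusted p was under 0.05 and its change above 1 on the log2 scale in either direction, and 5 of 5 members were called higher and 0 lower, against 11.4% of the 17875 tested genes called higher and 7.62% called lower, or 1617 and 2166 of 18016 genes when all libraries were brought to an equal sum. *Il12b* rose by 7.21 ± 0.11 (SE; adjusted p = 2.14e-22) on the log2 scale, higher in 3 of 3 libraries. The change was 7.92 ± 0.35 (adjusted p = 3.01e-14) for *Il23a*, 4.12 ± 0.48 (adjusted p = 2.35e-07) for *Il12a*, 3.70 ± 0.13 (adjusted p = 6.58e-16) for *Il27* and 1.52 ± 0.05 (adjusted p = 4.34e-17) for *Ebi3*. From pooled reads the ratio was 339 for *Il23a*, with a 95% exact interval of 132 to 1245, and 17.7 for *Il12a*, with an interval of 9.09 to 39.7, which cover counting error only. Without the 6 LPS libraries 5 members were called as well. These p-values measure the spread between the libraries alone. The paper's figure legend calls the samples biological replicates, but the labels do not say which libraries come from separate animals or cultures. In bulk RNA, fewer or more cells of a type and less or more RNA per cell cannot be told apart.

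With confinement of cPLA_2_ KO cells, 4 of 5 members stayed within the limits for a call. *Il23a* was the 1 of 5 members called higher and 0 were called lower, against 6.43% of tested genes called higher and 5.53% called lower. Its log2 change was 3.02 ± 0.35 (SE; adjusted p = 3.85e-07), and its ratio from pooled reads, 34 against 2, was 19.4 with an interval of 3.04 to 811. The log2 change ranged from 1.5005 with a pseudocount of 5 to 4.28 with DESeq2. *Il23a* passed the filter for testing through the confined cPLA_2_ WT and LPS libraries, where it is high, so the call depends on groups outside this comparison. A fit of the compared groups only did not test *Il23a* and called 0 members, while the alternatives that tested the gene called it. *Il12b* differed by 0.55 ± 0.11 (adjusted p = 0.00021), *Il27* by 0.42 ± 0.13 (adjusted p = 0.0122) and *Ebi3* by -0.18 ± 0.05 (adjusted p = 0.00277), all within the limit of 1 for a call. *Il12a* differed by 0.70 ± 0.48 (adjusted p = 0.248), and single libraries decided this: it passed with a change of 1.34 (adjusted p = 0.0212) without nonconfined cPLA_2_ KO library 2 and of 1.23 (adjusted p = 0.0496) without confined cPLA_2_ KO library 3, while its adjusted p ranged from 0.0212 to 0.647 over the alternatives. Without the 6 LPS libraries 1 member was called.

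The change with confinement differed between the genotypes for each subunit. In the interaction test, which takes the change in cPLA_2_ KO cells minus the change in cPLA_2_ WT cells, 5 of 5 members were called lower and 0 higher, against 6.56% of tested genes called lower and 1.11% called higher. With all libraries brought to an equal sum these shares of genes were 5.59% and 2.85%. The difference was -6.66 ± 0.15 (SE; adjusted p = 1.66e-18) on the log2 scale for *Il12b*, -4.90 ± 0.50 (adjusted p = 9.92e-08) for *Il23a* and -3.41 ± 0.68 (adjusted p = 0.000655) for *Il12a*, or -2.78 for *Il12a* without nonconfined cPLA_2_ KO library 2. It was -3.28 ± 0.18 (adjusted p = 6.54e-12) for *Il27* and -1.70 ± 0.06 (adjusted p = 8.02e-15) for *Ebi3*. The value for *Il23a* rests on 2 and 8 reads in the nonconfined groups, and edgeR gave -4.33 with an adjusted p of 0.0856, the highest over its alternatives, whose lowest was 1.12e-11. Without the 6 LPS libraries 5 members were called.

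**Figure D3:**
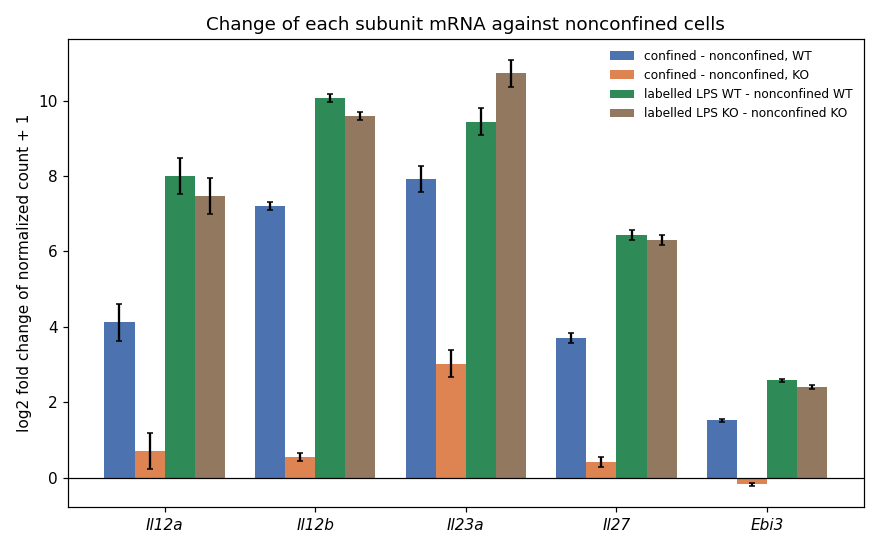
Change of each subunit mRNA against nonconfined cells of the same labelled genotype on the log2 scale, as bars from 0 for 4 comparisons with error bars of 1 SE from the limma fit with 3 libraries a group. For *Il12b* the bars are 7.21 with confinement in cPLA_2_ WT and 0.55 in cPLA_2_ KO cells, and 10.08 and 9.60 in the labelled LPS groups; the bars within a genotype share their nonconfined libraries.

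In nonconfined cells, with 18 libraries in the fit, the genotypes differed by less than 1 on the log2 scale for 4 of 5 members. *Il23a* was the 1 of 5 members called lower in cPLA_2_ KO cells and 0 were called higher, against 0.302% of tested genes called lower and 0.850% called higher. Its difference was -1.22 ± 0.35 (SE; adjusted p = 0.033) on the log2 scale, from 2 reads against 8, a pooled ratio of 0.259 with an interval of 0.00526 to 2.62, so that counting error alone covers no difference. Without the 6 LPS libraries 0 members were called by limma, with an adjusted p of 0.127 for *Il23a* in a range of 0.00443 to 0.335, and 4005 genes had an unadjusted p under 0.05 in the fit of 18 libraries; edgeR and DESeq2 called 0 members. *Il12b* differed by 0.44 ± 0.11 (adjusted p = 0.0133), *Ebi3* by 0.18 ± 0.05 (adjusted p = 0.0169), *Il27* by 0.07 ± 0.13 (adjusted p = 0.824) and *Il12a* by 0.68 ± 0.48 (adjusted p = 0.451). The value for *Il12a* ranged from 0.049 without nonconfined cPLA_2_ KO library 2 to 1.18 without nonconfined cPLA_2_ WT library 1.

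In confined cells each subunit was lower in cPLA_2_ KO than in cPLA_2_ WT cells. As ratios of means the levels in cPLA_2_ WT cells were 74.4 times those in cPLA_2_ KO cells for *Il12b*, 66.3 times for *Il23a*, 9.30 times for *Il27*, 6.42 times for *Il12a* and 2.87 times for *Ebi3*. The value for *Il23a* was 107 without confined cPLA_2_ KO library 1. Of the members 5 of 5 were called lower and 0 higher, against 7.31% of tested genes called lower and 2.79% called higher, or 6.14% and 4.37% with all libraries brought to an equal sum. The log2 difference was -6.22 ± 0.11 (SE; adjusted p = 3.79e-21) for *Il12b*, -6.12 ± 0.35 (adjusted p = 4.49e-12) for *Il23a*, -3.21 ± 0.13 (adjusted p = 1.18e-14) for *Il27*, -2.73 ± 0.48 (adjusted p = 0.000104) for *Il12a* and -1.52 ± 0.05 (adjusted p = 6.47e-17) for *Ebi3*. Without the 6 LPS libraries 5 members were called. The comparison shares its confined libraries with the comparisons above.

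Markers of other cells moved with the genotype and with confinement. Of all tested genes, 2.79% were called higher and 7.31% lower in confined cPLA_2_ KO than cPLA_2_ WT cells, and 0.850% and 0.302% in nonconfined ones. With confinement 11.4% were called higher and 7.62% lower in cPLA_2_ WT cells, and 6.43% and 5.53% in cPLA_2_ KO cells. The 8 of 8 listed neutrophil genes, of which *S100a9* was the most abundant, summed to 238752, 243828 and 242192 normalized counts in nonconfined and to 154013, 146804 and 144581 in confined cPLA_2_ WT libraries. Their sum in cPLA_2_ KO cells was 369490, 332192 and 357354 in nonconfined and 333025, 346015 and 329985 in confined libraries. None of these genes was at 0 in any library, and in confined cells 6 of 8 were called higher in cPLA_2_ KO than in cPLA_2_ WT cells, with a median difference of 1.31 beside 0.04 over all tested genes. With confinement 4 of 8 were called lower in cPLA_2_ WT cells, with a median of -0.85, and 1 of 8 in cPLA_2_ KO cells, with a median of -0.31. In the libraries labelled LPS the sums were 308802, 290063 and 292182 under the label cPLA_2_ WT and 276705, 312354 and 294381 under the label cPLA_2_ KO.

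The 5 of 5 listed eosinophil genes, led by *Prg2*, the eosinophil major basic protein gene, summed to 28264, 27979 and 27902 counts in nonconfined and 7625, 7131 and 7056 in confined cPLA_2_ WT libraries. The eosinophil sum was 67854, 63451 and 65407 in nonconfined and 16471, 15954 and 16902 in confined cPLA_2_ KO libraries. Of these genes 4 of 5 were called higher in nonconfined cPLA_2_ KO than cPLA_2_ WT cells (median 1.33), and in confined cells 3 were called higher and 1, *Ccr3*, lower (median 1.27). With confinement 1 was called higher and 3 lower in cPLA_2_ WT cells (median -2.13), and 0 and 4 in cPLA_2_ KO cells (median -1.92). In cPLA_2_ WT cells the mean of *Ccr3* was 85.4 in nonconfined and 190 in confined cells, and that of *Siglecf* was 1402 and 1447.5. Under LPS the eosinophil sums were 39860, 23376 and 31545 for the label cPLA_2_ WT and 23170, 39434 and 32226 for the label cPLA_2_ KO, with each label holding a low, a middle and a high library.

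The 6 of 6 listed mast cell and basophil genes, led by *Cpa3*, summed to 6440, 6624 and 6570 counts in nonconfined and 3445, 3344 and 3392 in confined cPLA_2_ WT libraries, and to 9850, 9487 and 9350 in nonconfined and 5305, 5163 and 5379 in confined cPLA_2_ KO libraries. *Mcpt4*, a protease of mature connective tissue mast cells, was at 0 in 17 of 18 libraries, and of the 5 tested genes 2 were called higher in confined cPLA_2_ KO than cPLA_2_ WT cells (median 0.57). With confinement 3 were called lower and 0 higher in each genotype. *Kit* went the other way from the sum, with means of 737 in nonconfined and 951 in confined cPLA_2_ WT cells, and 813 and 1414 in cPLA_2_ KO cells. Under LPS the mast cell and basophil sums were 6539, 6293 and 6346 for the label cPLA_2_ WT and 6125, 6691 and 6760 for the label cPLA_2_ KO. The 8 of 8 macrophage genes, led by *Csf1r*, summed to 52933, 50942 and 51422 in nonconfined and 49590, 48093 and 48566 in confined cPLA_2_ WT libraries, and to 53947, 57728 and 55873 in nonconfined and 53523, 48686 and 51329 in confined cPLA_2_ KO libraries. Their LPS sums were 58347, 50571 and 53306 for the label cPLA_2_ WT and 48917, 55880 and 52885 for the label cPLA_2_ KO, and in confined cells 1 of 8 was called higher, *Marco*, and 1 lower, *Fcgr1*, in cPLA_2_ KO than in cPLA_2_ WT cells (median 0.30).

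Of 8 listed T, NK and B cell genes 7 were matched, with *Cd3d* as the most abundant, *Ncr1* at 0 in 13, *Klrb1c* at 0 in 4 and *Ms4a1* at 0 in 3 of 18 libraries. They summed to 167, 212 and 197 counts in nonconfined and 87.9, 84.0 and 75.8 in confined cPLA_2_ WT libraries, and to 243, 246 and 215 in nonconfined and 139, 124 and 149 in confined cPLA_2_ KO libraries, far below the sums of the other lists. Under LPS these sums were 122, 115 and 120 for the label cPLA_2_ WT and 79.6, 132 and 148 for the label cPLA_2_ KO. Of the 5 tested genes 1 was called higher in confined cPLA_2_ KO than cPLA_2_ WT cells (median 0.51). For the DC list, 1 of 7 genes, *Ccr7*, was called lower in this comparison (median -0.10), and the summed DC level under LPS was 635453, 549921 and 582472 for the label cPLA_2_ WT and 555057, 624138 and 599407 for the label cPLA_2_ KO. The counts of called genes given here for the marker lists were the same without the 6 LPS libraries. The part of these cells in the differences of the subunits was not tested.

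Each subunit was further above nonconfined cells in the LPS libraries than in the confined ones. The LPS cells stayed in the incubator until the following day. Nonconfined cells were taken when the culture ended, and confined cells 4 h after confinement. No untreated culture kept to the following day is among the 6 conditions. In the comparisons with nonconfined cells under both labels, LPS and the longer time thus cannot be told apart. Against nonconfined cPLA_2_ WT cells, libraries labelled LPS cPLA_2_ WT had 1097-fold more *Il12b*, 999-fold more *Il23a*, 275-fold more *Il12a*, 89.0-fold more *Il27* and 5.99-fold more *Ebi3* as ratios of means. The ratio for *Il12a* was 496 without nonconfined cPLA_2_ WT library 1. The ratio for *Il23a* from pooled reads was 974 with an interval of 380 to 3578. Of the members 5 of 5 were called higher and 0 lower, against 15.0% of tested genes called higher and 12.3% called lower, or 9.46% and 24.8% with the same total. The log2 changes were 10.08 ± 0.11 (SE; adjusted p = 4.02e-25) for *Il12b*, 9.45 ± 0.35 (adjusted p = 7.49e-16) for *Il23a*, 8.01 ± 0.48 (adjusted p = 3.42e-12) for *Il12a*, 6.44 ± 0.13 (adjusted p = 2.25e-20) for *Il27* and 2.58 ± 0.05 (adjusted p = 2.29e-21) for *Ebi3*. With both genotypes pooled on each side they were 9.84 for *Il12b*, 10.09 for *Il23a*, 7.74 for *Il12a*, 6.37 for *Il27* and 2.49 for *Ebi3*, and 5 members were called. The ratios of means over 6 LPS and 6 nonconfined libraries were 917 for *Il12b*, 1651 for *Il23a*, 201 for *Il12a*, 84.7 for *Il27* and 5.62 for *Ebi3*, with 302 for *Il12a* without nonconfined cPLA_2_ KO library 2.

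For libraries labelled LPS cPLA_2_ KO against nonconfined cPLA_2_ KO cells, 5 of 5 members were called higher and 0 lower, against 15.0% called higher and 12.9% called lower of the genes tested, or 9.36% and 24.4% with the same total. The log2 changes were 9.60 ± 0.11 (SE; adjusted p = 7.42e-25) for *Il12b*, 10.73 ± 0.35 (adjusted p = 8.46e-17) for *Il23a*, 7.47 ± 0.48 (adjusted p = 1.14e-11) for *Il12a*, 6.30 ± 0.13 (adjusted p = 3.12e-20) for *Il27* and 2.40 ± 0.05 (adjusted p = 7.93e-21) for *Ebi3*. With the mean of both LPS labels in place of this one, an alternative chosen after seeing the data, they were 9.62 for *Il12b*, 10.70 for *Il23a*, 7.40 for *Il12a*, 6.33 for *Il27* and 2.40 for *Ebi3*, with 5 called. *Il12a* was at 8.10 without nonconfined cPLA_2_ KO library 2. *Il23a* rests here on 2 reads in nonconfined cells, and its pooled ratio was 3927 with an interval of 704 to 155178.

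Between the LPS labels 0 of 5 members were called by limma, against 0% of the 17875 tested genes called higher and 0% called lower in cPLA_2_ KO, with 890 genes at an unadjusted p under 0.05 and 0 genes called by edgeR and 0 by DESeq2. The log2 differences were 0.14 ± 0.48 for *Il12a*, -0.04 ± 0.11 for *Il12b*, 0.06 ± 0.35 for *Il23a*, -0.07 ± 0.13 for *Il27* and 0.00 ± 0.05 (SE) for *Ebi3*, each with an adjusted p of 1.000. Since *Pla2g4a* and *Ddx3y* did not follow the labels of these libraries, the values cannot be read as a result on the genotype.

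Confined cPLA_2_ WT cells had less of each subunit mRNA than the LPS libraries, with the limit that the confined cells were collected 4 h after confinement and the LPS cells on the following day. Their level was 0.345 of that in libraries labelled LPS cPLA_2_ WT for *Il23a*, 0.479 for *Ebi3*, 0.150 for *Il27*, 0.136 for *Il12b* and 0.0674 for *Il12a* as ratios of means. Over all 6 LPS libraries these ratios were 0.339 for *Il23a*, 0.479 for *Ebi3*, 0.154 for *Il27*, 0.138 for *Il12b* and 0.0643 for *Il12a*. Of the members 5 of 5 were called lower and 0 higher, against 7.51% of tested genes called lower and 6.32% called higher, or 4.93% and 10.7% with the same total. The log2 differences were -3.89 ± 0.48 (SE; adjusted p = 7.69e-07) for *Il12a*, -2.87 ± 0.11 (adjusted p = 4.07e-15) for *Il12b*, -2.73 ± 0.13 (adjusted p = 2.64e-13) for *Il27*, -1.53 ± 0.35 (adjusted p = 0.00103) for *Il23a* and -1.06 ± 0.05 (adjusted p = 4.71e-14) for *Ebi3*. Against the mean of both LPS labels, chosen after seeing the data, they were -3.96 for *Il12a*, -2.85 for *Il12b*, -2.70 for *Il27*, -1.56 for *Il23a* and -1.06 for *Ebi3*, with 5 called. The call for *Ebi3* ended with the same total per library, at -0.77, and with edgeR, at -0.99. With that scaling the median of all genes was 0.26 in this comparison and 0.46 for confined cPLA_2_ KO against LPS cells, -0.23 for confined against nonconfined cPLA_2_ WT cells, 0.24 in the interaction test, 0.19 for the genotypes in confined cells, and -0.47 and -0.44 for LPS against nonconfined cells of the labels cPLA_2_ WT and cPLA_2_ KO.

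Confined cPLA_2_ KO cells lay further below libraries labelled LPS cPLA_2_ KO. Of the members 5 of 5 were called lower and 0 higher, against 12.6% of tested genes called lower and 10.4% called higher, or 8.38% and 21.7% with the same total. The log2 differences were -9.05 ± 0.11 (SE; adjusted p = 1.91e-24) for *Il12b*, -7.70 ± 0.35 (adjusted p = 3.21e-14) for *Il23a*, -6.76 ± 0.48 (adjusted p = 8.12e-11) for *Il12a*, -5.88 ± 0.13 (adjusted p = 1.05e-19) for *Il27* and -2.58 ± 0.05 (adjusted p = 2.08e-21) for *Ebi3*. Against the mean of both LPS labels they were -9.07 for *Il12b*, -7.68 for *Il23a*, -6.69 for *Il12a*, -5.92 for *Il27* and -2.58 for *Ebi3*, with 5 called.

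Some genes followed the subunits across the 18 libraries, by Pearson's r of log2 values over 11142 genes; the points share the 6 conditions, so r mainly reflects the differences between them. For *Il12b* the closest were *Ntng2* (r = 0.998, n = 18), *Rnf19b* (r = 0.998), *Nfkb2* (r = 0.998) and *Clic4* (r = 0.998). For *Il12a* they were *Pcdh7* (r = 0.991, n = 18), *Ch25h* (r = 0.987), *Eps15* (r = 0.987) and *Vasp* (r = 0.985). For *Il23a* they were *Cd247* (r = 0.994, n = 18), *Dnaja2* (r = 0.993), *Nfkb1* (r = 0.992) and *U90926* (r = 0.992). *Il27* was followed by *Gpr84* (r = 0.997, n = 18), *Cd40* (r = 0.997), *Icam1* (r = 0.997) and *Bcl2a1b* (r = 0.997), and *Ebi3* by *Cd40* (r = 0.998, n = 18), *Filip1l* (r = 0.997), *Ikbke* (r = 0.997) and *Usp12* (r = 0.996). *Cd40* stood in both of the last lists. Over the 12 libraries without LPS the 20 values of r lay between 0.914 (*Vasp* with *Il12a*) and 0.998 (*Nfkb2* with *Il12b*).

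The receptors of the family form a list of 5 chains. For this list and the gene lists after it, the shares of all tested genes are as follows. With confinement 11.4% were called higher and 7.62% lower in cPLA_2_ WT cells, and 6.43% and 5.53% in cPLA_2_ KO cells. The interaction test called 6.56% lower and 1.11% higher. In confined cells 7.31% were called lower and 2.79% higher in cPLA_2_ KO than in cPLA_2_ WT cells. With LPS 15.0% were called higher under each label. Of the 5 chains 1, *Il12rb2*, the signaling chain of the IL-12 receptor, was called higher with confinement in cPLA_2_ WT cells, with a log2 change of 1.02 and means of 1156 ± 36.1 (SD, n = 3) in nonconfined and 2346 ± 98.2 in confined cells. The change of *Il12rb2* was close to the limit of 1 for a call, and with the same total per library the median of all genes in this comparison was -0.23. The list's median change was 0.05 beside -0.01 over all tested genes. In cPLA_2_ KO cells 1, *Il23r*, the specific chain of the IL-23 receptor, was called lower (-1.01, close to the limit; median 0.23 beside 0.01), and in confined cells *Il23r* was called lower in cPLA_2_ KO than in cPLA_2_ WT cells (-1.28; median -0.28 beside 0.04). Both calls rest on low counts of *Il23r*, with means of 24.1 in nonconfined and 11.4 in confined cPLA_2_ KO cells and 28.4 in confined cPLA_2_ WT cells. None of the 5 was called in the interaction test by limma (median 0.05 beside 0.05). With LPS *Il23r* was the 1 called higher under the label cPLA_2_ WT (1.61; median 0.12) and under the label cPLA_2_ KO (2.31; median 0.23), from low counts of 37.0 ± 6.77 in nonconfined to 116 ± 29.1 in labelled LPS cPLA_2_ WT cells.

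Of the kinases and STATs that carry the signal of these receptors, 5 are reported: *Jak1*, *Jak2*, *Tyk2*, *Stat3* and *Stat4*. With confinement 3 of 5 were called higher in cPLA_2_ WT cells, *Stat4* (2.07), which transmits IL-12 signals, *Stat3* (1.69), which transmits IL-23 and IL-27 signals, and *Jak2* (1.31), with a list median of 1.31. Of all tested genes 11.4% were called higher in this comparison. In confined against nonconfined cPLA_2_ KO cells none of the 5 was called by limma, with a median of 0.04, while 9309 of all tested genes had an unadjusted p under 0.05. The interaction test called 3 lower (median -1.27), and in confined cells 3 were called lower in cPLA_2_ KO than in cPLA_2_ WT cells (median -1.51). With LPS 3 were called higher under the label cPLA_2_ WT (median 1.48) and 4 under the label cPLA_2_ KO (median 1.21).

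Of 13 transcription factors known at promoters of the family, 7 were called higher with confinement in cPLA_2_ WT cells and 0 lower, with a median change of 1.07. Of all tested genes 11.4% were called higher and 7.62% lower. The 7 transcription factors include *Nfkbiz* (5.75), an NF-κB cofactor, *Rel* (2.25), the NF-κB subunit c-Rel known at *Il12b* and *Il23a*, *Cebpb* (2.16), *Nfkb1* (2.10) and *Nfkb2* (2.00). *Nfkbiz* had 299 ± 27.2 (SD, n = 3) normalized counts in nonconfined and 16156 ± 159 in confined cPLA_2_ WT cells, and 289 ± 27.4 and 998 ± 27.6 in cPLA_2_ KO cells. In cPLA_2_ KO cells 3 were called higher, *Nfkbiz* (1.79), *Cebpb* (1.46) and *Rel* (1.07), and 1 lower, *Batf3* (-1.63), with a median of 0.20. The interaction test called 7 lower (median -1.06), and in confined cells 6 were called lower in cPLA_2_ KO than in cPLA_2_ WT cells (median -0.96). With LPS 9 were called higher under each label, with medians of 2.06 for cPLA_2_ WT and 1.75 for cPLA_2_ KO.

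Of 5 genes of LPS recognition and its adaptors, *Cd14*, the LPS co-receptor, was the 1 called higher with confinement in cPLA_2_ WT (6.11; list median 0.54) and in cPLA_2_ KO cells (3.05; list median 0.33). The interaction test called it lower (-3.06; list median -0.26), and in confined cells *Cd14* and *Myd88*, a Toll-like receptor adaptor, were called lower in cPLA_2_ KO than in cPLA_2_ WT cells (list median 0.02). *Cd14* was also the 1 called higher with LPS under each label, with list medians of 0.90 and 0.84.

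Of 11 other cytokines for T cells or inflammation, 9 were called higher with confinement in cPLA_2_ WT cells, with a median change of 2.97. Of all tested genes 11.4% were called higher. *Il1b*, an inflammatory cytokine gene, rose by 8.45, *Il6* by 7.25 and *Tnf* by 1.79 on the log2 scale. *Il10*, a cytokine that restrains inflammation, was at 0 in 3 of 3 nonconfined cPLA_2_ WT libraries and at 1466, 1454 and 1558 counts in confined ones, at least 868-fold higher against a floor of 3 read pairs over the group. *Il2*, a T cell growth factor, was at 0 in the nonconfined libraries of both genotypes and rose with confinement by 14.6-fold or more in cPLA_2_ WT and by 7.80-fold or more in cPLA_2_ KO cells. With both at these bounds the median remained at 2.97. In cPLA_2_ KO cells 5 were called higher, *Il6* (1.29), *Il1b* (3.91), *Il10*, *Ifnb1* and *Il2*, with a median of 0.30, also with *Il2* at its bound. The last 3 had few counts in these cells: 3.13, 0 and 0 for *Il10* and 0, 1.86 and 3.88 for *Ifnb1* in nonconfined libraries, against 18.3, 16.0 and 9.11 and against 11.9, 6.40 and 6.38 in confined ones, with *Il2* at 10.8, 4.27 and 24.6 after confinement. None of these 3 reached the limit for testing in 3 libraries of cPLA_2_ KO cells apart from LPS, so that they were tested through the groups in which they are high. The interaction test called 8 lower, with a median of -2.08 that was the same without *Il10* and *Il2*, and in confined cells 8 were called lower in cPLA_2_ KO than in cPLA_2_ WT cells (median -2.21). With LPS 9 were called higher under each label, with medians of 4.82 for cPLA_2_ WT and 5.55 for cPLA_2_ KO, or 5.43 with *Il2* at its bound. In nonconfined cells and between the LPS labels, no gene of the receptor, kinase, transcription factor, LPS recognition or cytokine lists was called between genotypes by limma. For these 5 lists the counts given for confinement, the interaction and the genotypes were the same without the 6 LPS libraries. With both genotypes pooled, LPS against nonconfined cells gave 1 of 5 receptors called higher (median 0.18), 4 of 5 kinases and STATs (median 1.34), where *Tyk2* joins, 9 of 13 transcription factors (median 1.91), 1 of 5 LPS recognition genes (median 0.91) and 9 of 11 cytokines, beside a median of 0.02 over all tested genes. Both LPS labels against nonconfined cPLA_2_ KO cells gave 1, 4, 9, 1 and 9 called higher in the same order, with medians of 0.27, 1.20, 1.70 and 0.70 for the first 4 lists. The cytokine medians with pooled labels are left out, since *Il2* was at 0 in the nonconfined libraries.

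Promoter sequences were matched for 3 of the 5 members, in 4 windows of 300 bases that run from 250 bases before to 50 after a start, in the RefSeq table for GRCm38.p6. Among the 32851 windows used here there is no entry for *Il23a* and *Il27*. 6 motifs were searched on both strands, the NF-κB motif by its consensus, the ISRE core as GAAA and again GAAA after a gap of any 2 bases, the C/EBP core TTGCNNAA, the AP-1 core TGANTCA, the PU.1 core GAGGAA and the TATA box core TATAAA. Of all 32851 promoter windows, 8.46% hold the NF-κB motif, 3.44% the ISRE core, 10.8% TTGCNNAA, 7.81% TGANTCA, 28.3% GAGGAA and 13.6% TATAAA. The windows of *Il12b* and *Ebi3* are shown because they hold matches; matched letters are in capitals, and a match is a description of the letters alone. The *Il12b* window (chr11:44399813-44400112, plus strand) holds 2 GAGGAA matches, at bases 32 to 37 on the minus strand and at 108 to 113 on the plus strand. The *Ebi3* window (chr17:55952373-55952672, plus strand) holds 2 matches to the NF-κB motif, at bases 207 to 216 and 265 to 274, and 1 GAGGAA, at 75 to 80. No motif overlaps another in these windows, and the 2 windows of *Il12a* hold none of the 6.
Il12b: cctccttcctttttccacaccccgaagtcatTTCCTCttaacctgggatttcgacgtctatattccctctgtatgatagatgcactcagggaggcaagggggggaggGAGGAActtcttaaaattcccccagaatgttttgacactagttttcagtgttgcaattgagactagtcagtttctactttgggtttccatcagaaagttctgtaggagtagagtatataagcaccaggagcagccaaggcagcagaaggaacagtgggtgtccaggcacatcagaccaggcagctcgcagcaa
Ebi3: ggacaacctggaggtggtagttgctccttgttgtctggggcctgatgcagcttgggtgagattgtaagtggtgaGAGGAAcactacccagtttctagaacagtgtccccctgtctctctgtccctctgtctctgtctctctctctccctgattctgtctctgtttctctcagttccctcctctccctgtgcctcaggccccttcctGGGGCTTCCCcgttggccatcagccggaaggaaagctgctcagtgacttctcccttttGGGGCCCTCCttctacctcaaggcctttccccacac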

How the data were processed

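Poly(A) RNA was sequenced in 18 libraries with strand-specific kits. The deposited table holds a signal value per gene and library that the authors made by mapping reads with STAR 2.7.5a to GRCm39, counting with featureCounts 1.5.0 on the FAST DB annotation and dividing by DESeq2 size factors in R 3.5.3. Whole reads were recovered from these values by dividing each library by the value of 1 read, and 100% of values came out whole within a tolerance of 0.001. Genes at 2 reads (2144 to 2399 per library) outnumbered genes at 1 read (559 to 655), so mates of a pair appear to have been counted separately. Exact (Clopper-Pearson) 95% intervals of read ratios therefore use read pairs, taken as reads divided by 2, and cover counting error only.

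The fit took 6 group means of log2 values, with 1 added to each normalized count, in limma 3.58.1 under R 4.3.3 (lmFit, contrasts.fit, eBayes with a trend). Tests covered genes with 10 or more normalized counts in 3 or more libraries, which kept 17875 of 62197 genes and 5 of 5 members. P-values are two-sided and were adjusted by Benjamini-Hochberg within each comparison, and a call meant an adjusted value below 0.05 with a log2 change beyond 1 in either direction. The fit was tested on simulated data. The alternatives tried were edgeR 4.0.16 and DESeq2 1.42.0 with recovered reads, the same total or TMM as scaling, 0.5 or 5 as pseudocount, either all genes or a limit of 100 counts, models of only the groups compared, a block for the replicate number, 2 other call rules and each library left out. On recovered reads in confined against nonconfined cPLA_2_ WT cells, edgeR called 2141 genes higher and 1252 lower, and DESeq2 2154 higher and 1348 lower. Pooled LPS labels and values without the 6 LPS libraries, gene lists and similar genes included, were added after seeing the data, except for LPS against nonconfined cells with both genotypes pooled. Ratios with 1 library left out, and shares of called genes with libraries at an equal sum, were also added then.

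Named genes are the members, 4 genes of most similar pattern per member (at least 100 counts in a group mean) and lists of receptors, kinases and STATs, transcription factors, LPS recognition genes, other cytokines, cell type markers and label checks; 1 listed gene is not reported here. Members and lists were chosen with earlier results of these data known. Counts of reads on introns or single exons were not used here, and the strand setting of the counting is not known from the labels, so reads of overlapping genes may be shared. Figures were drawn with matplotlib 3.10.9.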

Additional observations from a re-analysis of the deposited data

Results flagged for a closer look

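A test of the difference itself, the interaction of confinement and genotype in limma, called 29 of the members and listed genes as changing differently with confinement between cPLA_2_ WT and cPLA_2_ KO cells. Over all 17875 tested genes it called 6.56% lower and 1.11% higher. The members and lists were chosen with earlier results of these data known. Values are log2 changes in cPLA_2_ KO cells minus those in cPLA_2_ WT cells. All 5 subunits are among the 29 genes: *Il12a* (-3.41), *Il12b* (-6.66), *Il23a* (-4.90), *Il27* (-3.28) and *Ebi3* (-1.70). Without the 6 LPS libraries the test called 29 of these 29 genes, and their log2 values, which rest on the 4 other groups, are the same.

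The same test picked out the kinase and STAT genes *Jak2* (-1.27), *Stat3* (-1.42) and *Stat4* (-2.72), and the transcription factor genes *Rel* (-1.18), *Relb* (-1.06), *Nfkb1* (-1.62), *Nfkb2* (-1.80), *Nfkbiz* (-3.97), *Irf1* (-1.57) and *Batf3* (-1.22). It also picked out *Cd14* (-3.06) and the cytokine genes *Il6* (-5.97), *Il1b* (-4.54), *Il15* (-2.08), *Tnf* (-1.501), *Ifnb1* (-2.30), *Tnfsf9* (-3.41), *Tnfsf4* (-2.05) and *Il10* (-7.33). The value for *Il10* depends on the pseudocount, since the gene was at 0 in 3 of 3 nonconfined cPLA_2_ WT libraries.

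Among cell type markers the difference was found for *Ccr7* (-1.93), *Fcgr1* (-1.17) and *Ccr3* (-3.06), and in the other direction for the neutrophil granule genes *Elane* (2.02) and *Mpo* (1.49). In nonconfined and confined cells the genotype cannot be told apart from the presence of Y-chromosome transcripts, and the cause of these differences was not tested.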

How the results depend on the processing

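Over the alternatives, 179 of 195 counts of called members stayed within 1.5 times the reported count and 16 did not. Of 872 log2 changes, 848 kept their direction and their side of the threshold, 13 lost the call, 2 gained it and 9 changed sign. The counts of 5 members for confined against nonconfined cPLA_2_ WT cells, the interaction, the genotypes in confined cells and each comparison with LPS cells were among those within 1.5 times.

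For confined against nonconfined cPLA_2_ KO cells, the count of 1 member became 4 with the adjusted p alone, where smaller changes count. It became 0 in a fit of the compared groups only, where 4 members were tested and *Il23a* was not, since fewer libraries reach the filter. With each library left out it ranged from 1 to 2, with 2 without nonconfined cPLA_2_ KO library 2 or without confined cPLA_2_ KO library 3. Both gave *Il12a* a call, at 1.34 and 1.23, and the cause was not tested. Leaving out nonconfined cPLA_2_ KO library 2 moved *Il12a* by 0.63 on the log2 scale wherever that group enters, to -2.78 in the interaction test, 0.049 between genotypes in nonconfined cells and 8.10 for LPS.

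For the genotypes in nonconfined cells, the count of 1 member, *Il23a*, became 0 with a pseudocount of 5, no filter, edgeR, DESeq2, the compared groups only (3 members tested) and without the 6 LPS libraries, and 3 with the adjusted p alone. With each library left out it ranged from 0 to 1, with 0 without nonconfined cPLA_2_ WT library 1, 2 or 3 or nonconfined cPLA_2_ KO library 2 or 3. The log2 difference of *Il23a* was -0.40 with a pseudocount of 5 and -1.95 with DESeq2, and ranged from -1.67 to -0.99 with each library left out. *Il27* changed sign in this comparison, to -0.011 without nonconfined cPLA_2_ KO library 3, in a range of -0.011 to 0.16. The cause was not tested.

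Between the LPS labels, where no member was called by limma in any of the alternatives, signs changed with a library left out for *Il12a* (range -0.026 to 0.26, lowest without labelled cPLA_2_ WT library 2), *Il12b* (-0.15 to 0.079, with 0.079 without labelled cPLA_2_ WT library 2 and 0.056 without labelled cPLA_2_ KO library 2), *Il23a* (-0.023 to 0.12, lowest without labelled cPLA_2_ WT library 1) and *Ebi3* (-0.018 to 0.022, with -0.018 without labelled cPLA_2_ WT library 1, -0.012 without labelled cPLA_2_ KO library 1 and -0.0024 without its library 3). *Ebi3* was also at -0.010 with TMM scaling. The cause was not tested.

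The call of *Il23a* in the interaction test ended with edgeR (-4.33), and that of *Ebi3* for confined cPLA_2_ WT against LPS cells ended with the same total (-0.77) and with edgeR (-0.99).

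A block for the replicate number gave 5 called members for confined against nonconfined cPLA_2_ WT cells and 1 for cPLA_2_ KO cells, 5 in the interaction test, 1 for the genotypes in nonconfined cells, 5 in confined cells and 0 between LPS labels. The labels state no pairing, and in 0 of 9 comparisons were the correlations across genes, between libraries of one number less their group means, all over 0.1 (lowest -0.142, highest 0.338). Log2 changes against nonconfined cells that rest on few reads moved with the alternatives: for *Il23a* from 1.5005 to 4.28 with confinement in cPLA_2_ KO and 6.75 to 8.41 in cPLA_2_ WT cells, and 8.27 to 10.09 and 8.73 to 11.91 for LPS under the labels cPLA_2_ WT and cPLA_2_ KO; for *Il12a* from 3.30 to 4.61 with confinement in cPLA_2_ WT cells, and 7.13 to 8.51 and 6.84 to 8.10 for LPS. Depth limits *Il23a* most, with 8 and 2 reads in the nonconfined groups.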
